A study of Mus musculus with 12 samples.

Results

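The 78 genes described here are named for proteins of the mitochondrial ribosome, the mitoribosome. They are the protein-coding mouse genes whose symbol begins with Mrpl or Mrps and a number, and they comprised 49 Mrpl genes, named for the large subunit, and 29 Mrps genes, named for the small subunit. Another 5 pseudogenes whose names fit the same pattern were left out. All 78 were listed in both deposited expression tables, out of 32199 genes in the table of the PAD4 set and 31719 genes in the table of the IL-33 set, and all 78 passed the filter on low values in both (a mean of at least 0.5 FPKM over the 6 libraries).

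Kidney RNA from 12 libraries was sequenced in 4 groups of 3. All mice were male, 8 weeks old and carried contrast-induced acute kidney injury: 1 kidney was removed, 3 weeks were allowed for recovery, water was withheld for 24 h, furosemide was given, and 20 min later iodixanol, a contrast agent that contains iodine, went into the tail vein. The kidney was taken 24 h after that. The PAD4 set held wild-type C57BL/6 mice and Padi4 knockout mice, which lack peptidylarginine deiminase 4, an enzyme that citrullinates histones. The IL-33 set held its own wild-type C57BL/6 mice and mice labelled Il33 knockout, Il33 encoding an alarmin cytokine released by damaged cells. The 2 sets carry different batch labels, and their values were normalised in separate tables, so each knockout was compared with the wild type of its own set. No uninjured kidney was among the groups, so the comparisons concern injured kidneys of different genotype. Nothing in the labels says how either allele was made, or whether each library came from a separate animal. If libraries shared an animal, the p-values measure a spread that is partly technical.

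The mitoribosome sits in the mitochondrial matrix and translates the few messages encoded by the mitochondrial genome, all of which specify core subunits of the respiratory chain and of ATP synthase. Its proteins, in contrast, are encoded in the nucleus, made in the cytosol and imported, and they assemble on 2 ribosomal RNAs made inside the mitochondrion. Some descend from bacterial ribosomal proteins and others are particular to mitochondria. The proximal tubule of the kidney depends on oxidative metabolism and is among the tissues richest in mitochondria.

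Names and places differ for a few of the genes. By published structures, the products of Mrps30 and Mrps18a lie in the large subunit despite their names, and the product of Mrps36 belongs to the 2-oxoglutarate dehydrogenase complex of the tricarboxylic acid cycle rather than to the ribosome. With these placed accordingly, 51 genes were counted as large-subunit and 26 as small-subunit genes. Ancestry was assigned by the number in the name, with some genes placed by choice. Mrps24 and Mrps28 were put with the bacterial group. Mrps18a and Mrps18b, though of the bacterial S18 protein family, were put with those particular to mitochondria. So counted, 44 have a bacterial counterpart and 32 are particular to mitochondria, while Mrpl55 and Mrps36 were not classed.

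The promoters of 4 genes on which the comparisons turn are shown first. Mrps36, Mrps21 and Mrps11 were higher in both knockouts, and Mrps18b carried the largest difference between the knockouts. Each window runs from 250 bases before to 50 bases after the transcription start in RefSeq (build GRCm38.p6) and reads 5′ to 3′ along the gene's strand. Capitals mark the cores of motifs bound by regulators of nuclear mitochondrial genes, found on either strand: GCGCA, any base and GCGC for NRF1, CCGGAAG for ETS factors such as GABPA, and AANATGGCG for YY1. None of the 3 cores is contained in another.
Mrps36 (chr13:100744610-100744909, minus strand, no match): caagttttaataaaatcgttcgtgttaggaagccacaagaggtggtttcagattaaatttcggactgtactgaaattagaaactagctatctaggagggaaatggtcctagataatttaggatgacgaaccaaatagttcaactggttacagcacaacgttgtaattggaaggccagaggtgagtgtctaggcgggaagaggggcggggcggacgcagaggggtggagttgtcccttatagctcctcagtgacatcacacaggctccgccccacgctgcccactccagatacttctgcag
Mrps21 (chr3:95871465-95871764, minus strand, an NRF1 core and an ETS core): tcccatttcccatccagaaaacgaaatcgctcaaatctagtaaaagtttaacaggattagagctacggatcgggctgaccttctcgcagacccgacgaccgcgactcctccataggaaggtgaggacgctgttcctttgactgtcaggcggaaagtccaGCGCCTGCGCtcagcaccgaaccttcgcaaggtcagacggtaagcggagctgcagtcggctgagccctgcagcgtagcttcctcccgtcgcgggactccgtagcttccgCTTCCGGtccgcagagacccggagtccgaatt
Mrps11 (chr7:78782881-78783180, plus strand, a YY1 core): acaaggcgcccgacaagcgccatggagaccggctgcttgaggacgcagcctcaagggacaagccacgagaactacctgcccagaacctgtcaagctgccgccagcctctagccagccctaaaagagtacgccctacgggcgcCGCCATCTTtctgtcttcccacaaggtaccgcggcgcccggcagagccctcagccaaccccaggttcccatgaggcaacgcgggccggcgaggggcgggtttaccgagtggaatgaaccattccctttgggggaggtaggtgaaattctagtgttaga
Mrps18b (chr17:35916391-35916690, minus strand, an ETS core at the 3′ end of the window): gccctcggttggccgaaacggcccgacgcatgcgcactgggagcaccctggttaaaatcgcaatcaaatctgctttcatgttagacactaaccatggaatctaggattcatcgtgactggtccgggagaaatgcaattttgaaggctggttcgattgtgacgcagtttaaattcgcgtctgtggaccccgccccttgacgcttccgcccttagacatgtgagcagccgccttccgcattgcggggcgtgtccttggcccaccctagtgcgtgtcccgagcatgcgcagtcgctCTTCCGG

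A RefSeq promoter was found for 69 of the 78 genes. At least 1 of the 3 cores occurred in 42 of them (60.9%), against 33.1% of the 8993 promoters of protein-coding genes tested in both tables and 15.9% of all 27025 genes with a promoter in the RefSeq table. The ETS core was present in 37.7% of the mitoribosomal promoters, the NRF1 core in 18.8% and the YY1 core in 15.9%. The corresponding shares of the tested protein-coding genes were 20.4%, 11.5% and 6.14%. The 4 promoters above thus include 1 gene with none of the cores, and the gene without a match had the largest rise of the 78 in both comparisons. The promoter windows of Mrps11 and of its neighbour Mrpl46, which is read from the opposite strand, share 141 of their 300 bases. Whether both genes use the shared stretch was not tested. A match is a run of letters, not a measured binding site.

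The libraries need a description before the comparisons. In the PAD4 set, Padi4 gave 0.704, 1.06 and 1.67 FPKM in wild-type mice against 0.217, 0.497 and 0.187 FPKM in knockouts, a fall that passed the test (−0.71 ± 0.19 on the log2(FPKM + 1) scale, limma SE, Benjamini-Hochberg adjusted p = 0.0147). In the IL-33 set, Il33 gave 1.71, 1.13 and 3.64 FPKM in wild-type mice against 1.14, 0.616 and 1.02 FPKM in the mice labelled Il33 knockout. The groups overlapped and the limma test was not passed (−0.65 ± 0.28, adjusted p = 0.099), so these levels do not separate the genotypes and the label is used here as given. In the PAD4 set Il33 was called lower in the knockout, with means of 4.05 ± 1.09 and 1.25 ± 0.347 FPKM (SD, n = 3 each; −1.15 ± 0.23, limma adjusted p = 0.00208). Total FPKM per library was 700601 to 812981 in the PAD4 set and 385124 to 420279 in the IL-33 set, of which genes of the mitochondrial genome made up 52.0 to 60.0% and 24.1 to 29.2%. FPKM tables do not carry read totals, so the sequencing depth is unknown.

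Markers of the labelled tissue and of other tissues also moved with the groups. The summed FPKM of 18 kidney tubule genes ranged from 204 to 380 in the wild-type and from 372 to 1128 in the knockout libraries of the PAD4 set, with 9 of 16 tested genes higher. In the same set, the sum of 16 colon and gut epithelium markers ranged from 543 to 756 in the wild-type and from 354 to 475 in the knockout libraries (15 of 16 lower, 1 higher). Lung markers summed to 298 to 852 in the wild-type and 43.1 to 212 in the knockout libraries (9 of 10 lower), and smooth muscle markers to 347 to 750 and 63.2 to 242 (8 of 9 lower). Heart and skeletal muscle markers summed to 63.0 to 164 and 24.4 to 116 (1 of 8 lower). Brown fat and adipocyte markers summed to 4.94 to 33.5 in the wild-type libraries. In the knockout libraries they came to 3.16, 3.47 and, in library 3, 142, with 0 of 5 tested genes called. In the IL-33 set, kidney tubule markers summed to 2165 to 3143 in the wild-type and 4335 to 4964 in the knockout libraries (12 of 18 higher). Lung markers summed to 1.43 to 4.22 and 0.471 to 0.749 there, with the 1 tested gene lower. Colon and gut markers summed to 307 to 518 and 297 to 339 in that set (2 of 6 tested lower, 2 higher). Liver markers summed to 317 to 569 and 254 to 399 (1 of 5 tested lower, 1 higher) in the IL-33 set. Macrophage markers summed to 22.3 to 40.5 and 79.1 to 85.2 there (6 of 7 higher, 1 lower). Of the PAD4 set markers, 4 of 6 for neutrophils and 3 of 7 for macrophages were lower. No kidney tubule marker was at 0 in every library of a set. In each wild-type library of the PAD4 set the colon and lung sums exceeded the kidney tubule sum, and in each knockout library they lay below it. Whether libraries labelled kidney held RNA of other tissues was not tested. In bulk tissue, fewer cells of a type and less RNA per cell cannot be told apart. The part that these markers play in the values below was not tested.

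The mitoribosomal genes were expressed at modest levels. Per kilobase of transcript, the mean over the 6 libraries of the PAD4 set ran from 1.48 FPKM for Mrps22, a small-subunit protein particular to mitochondria, to 57.5 FPKM for Mrps21. After Mrps21 came Mrps6 (42.6 FPKM) and Mrpl24 (39.2 FPKM), and after Mrps22 at the low end came Mrpl3 (1.58 FPKM) and Mrpl32 (1.59 FPKM). In the IL-33 set the means ran from 3.42 FPKM for Mrpl15, 3.47 FPKM for Mrpl19 and 3.61 FPKM for Mrps10 to 62.2 FPKM for Mrps6, 62.8 FPKM for Mrpl34 and 82.9 FPKM for Mrpl12. The last encodes the flexible stalk protein of the large subunit that recruits translation factors.

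The first comparison asked how the injured kidney differs without PAD4. Most mitoribosomal genes had higher levels in the PAD4 knockout: the change was above 0 for 71 of 78 genes, with a median of 0.45 on the log2(FPKM + 1) scale and a median ratio of group means of 1.50. Over all 13986 genes tested, 51.6% were above 0 and the median change was 0.02. Few of these rises passed the test. After adjustment over all genes tested, 4 of 78 were higher (5.13%) and 0 were lower, against 8.89% higher and 8.79% lower (17.7% in either direction) among all genes tested (limma, two-sided). The share called higher was below that of all genes here, but this order turned with the settings: 23 of 78 were higher with median-of-ratios scaling (all genes, 12.7%), 23 with quantile normalization (13.7%) and 12 with array weights (12.1%). An unadjusted p under 0.05 was found for 22 mitoribosomal genes, all of them higher, and for 4292 of the 13986 genes tested, of which 2213 were higher. The groups did not overlap for 31 genes, all higher in the knockout, a separation found for 17.2% of all genes tested.

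The family as a whole shows how the 6 libraries lie. The summed level of the 78 genes came to 531, 660 and 756 FPKM in wild-type mice and to 1307, 790 and 829 FPKM in PAD4 knockouts. Every knockout library stood above every wild-type library, but knockout library 1 stood far above the other two, while knockout library 2 was only a little above wild-type library 3. As a share of FPKM outside the mitochondrial genome, the family took 0.203% ± 0.0366 (SD, n = 3) in wild-type and 0.297% ± 0.0794 (SD, n = 3) in knockout libraries. No p is given for these sums, since an exact permutation test of 3 against 3 cannot go below 0.1.

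The same library recurred gene by gene: PAD4 knockout library 1 held the highest value of 70 of the 78 genes and wild-type library 1 the lowest of 62. Knockout library 1 also held the highest summed level of the kidney tubule markers. Without it, the median change of the family was 0.26 and 1 gene, Mrps36, was called higher (all genes tested in that fit, 6.09%). Without wild-type library 1, the median was 0.34 and 0 genes were called higher by limma (all genes tested in that fit, 2.49%), with 2 at an unadjusted p under 0.05 (3784 of the 14110 genes tested). Without knockout library 2, 17 genes were called higher, against 12.7% of all genes tested in that fit. The number of genes called therefore rested on single libraries, whereas the family's median stayed above that of all genes each time.

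**Figure D1:**
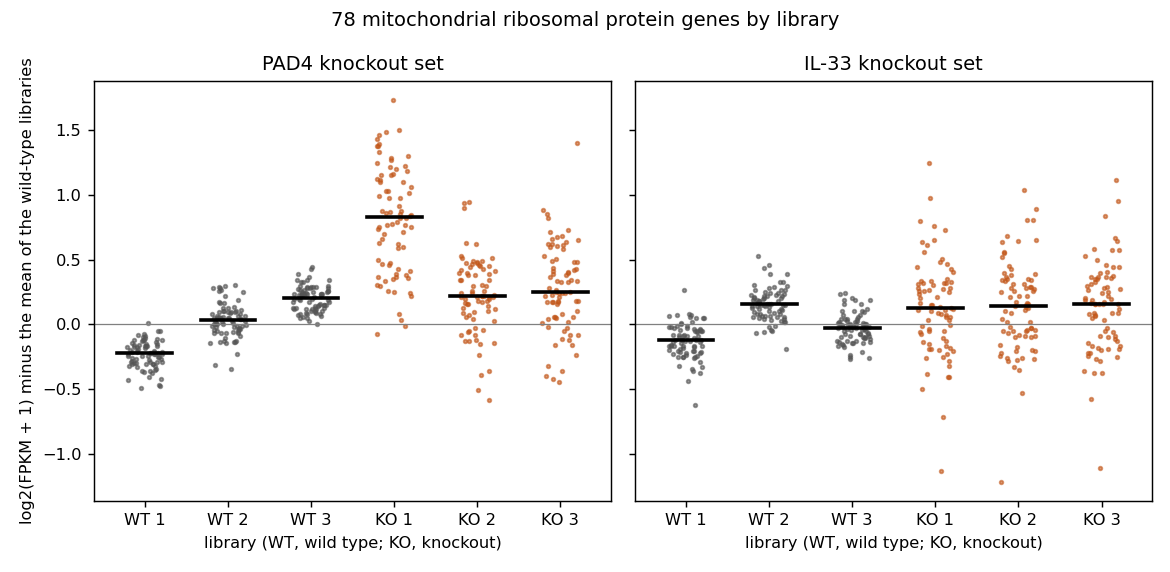
Level of each of the 78 genes in each library, as log2(FPKM + 1) minus the gene's mean over the 3 wild-type libraries of its set (points; grey, wild type; orange, knockout), with the library's median as a bar. In the PAD4 set knockout library 1 lies above all others, and in the IL-33 set the knockout libraries are spread both above and below 0.

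Mrps36 rose most in the PAD4 knockout. It gave 2.99, 4.73 and 4.86 FPKM in the wild type against 16.0, 6.86 and 12.5 FPKM in the knockout. All 3 knockout libraries exceeded all 3 wild-type libraries, and the means of 4.19 ± 1.04 and 11.8 ± 4.60 FPKM (SD, n = 3 each) stood in a ratio of 2.81. The change was 1.25 ± 0.30 (limma SE, adjusted p = 0.00753). Its product is an adaptor that ties the E3 component to the core of the 2-oxoglutarate dehydrogenase complex. The call was lost without wild-type library 1 (change 1.07, limma adjusted p = 0.0861). With Mrps36 left out of the family, 3 of 77 genes were higher (3.90%, against 8.89% of all genes tested).

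Mrps21, which encodes a small-subunit protein with a bacterial counterpart, was the second in size. Its values were 29.5, 39.8 and 43.9 FPKM in the wild type against 107, 58.1 and 66.6 FPKM in the knockout. The groups did not overlap, and the means of 37.7 ± 7.43 and 77.3 ± 26.3 FPKM (SD, n = 3 each) gave a change of 0.98 ± 0.33 (limma SE, adjusted p = 0.0486). This call lay close to the threshold and was lost in 5 of the 6 fits that left out a single library.

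Mrpl36, which encodes a very short large-subunit protein with a bacterial counterpart, gave 7.80, 9.44 and 13.1 FPKM in the wild type against 25.5, 19.3 and 16.9 FPKM in the knockout. Here knockout library 3, not 2, was the lowest of its group, and it still exceeded every wild-type library (change 0.97 ± 0.30, limma adjusted p = 0.0293). Of its 1161 exon bases, 30 overlap exons of Ndufs6 on the opposite strand. No source used here says whether the counting used the strand, so reads of the 2 genes in that stretch may not be told apart.

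Mrps11, on the platform of the small subunit, gave 1.81, 3.45 and 2.90 FPKM in the wild type against 8.49, 3.77 and 5.59 FPKM in the knockout. The groups were separate, though wild-type library 2 and knockout library 2 lay close together (change 0.87 ± 0.28, limma adjusted p = 0.0346). Of the 6 fits that left out a single library, the call of Mrpl36 was lost in 3 and that of Mrps11 in 4. The partner of Mrps11, Mrpl46, is a large-subunit gene on the other strand whose promoter window overlaps that of Mrps11. Mrpl46 gave 3.02, 5.68 and 4.87 FPKM in the wild type against 11.0, 6.10 and 7.29 FPKM in the knockout. Those groups did not overlap either, but the test was not passed (0.72 ± 0.28, adjusted p = 0.0828). The exons of the pair overlap, so a part of the reads of either may belong to the other.

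At the other end, the 7 genes with a change below 0 in the PAD4 comparison were Mrps12, Mrpl9, Mrpl52, Mrpl3, Mrpl43, Mrps23 and Mrps18b, and none passed the test. Mrps12, whose product lies at the decoding centre of the small subunit, gave 5.17, 8.25 and 6.99 FPKM in the wild type against 6.63, 4.15 and 4.99 FPKM in the knockout. The groups overlapped (−0.32 ± 0.26, limma adjusted p = 0.456). Mrps18b was not called, with 5.26, 5.43 and 5.78 FPKM in the wild type against 5.15, 6.57 and 4.51 FPKM in the knockout (−0.03 ± 0.25, limma adjusted p = 0.957).

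The second comparison asked the same of the kidneys labelled IL-33 knockout. Here the family split: 19 of 78 genes were higher (24.4%) and 6 were lower (7.69%), against 22.2% higher and 16.8% lower (39.1% in either direction) among the 14513 genes tested. The median change was 0.14, against 0.04 over all genes tested, and 51 of 78 genes were above 0, against 53.9% of all genes. The share called higher was near that of all genes, and where it lay against them moved with the scaling. With median-of-ratios scaling 13 were higher and 7 lower (all genes, 21.2% and 19.8%), with scaling to the nuclear genes 25 and 3 (24.2% and 14.4%) and with TPM scaling 17 and 3 (21.3% and 13.9%). Without a single knockout library, 5 to 7 genes were higher and 2 or 3 lower, while 14.3 to 15.2% of all genes were higher and 10.8 to 11.7% lower. Without wild-type library 1 the counts were 12 and 5 (all genes, 19.4% and 16.2%), without library 2 they were 25 and 3 (21.7% and 18.3%), and without library 3 they were 13 and 8 (27.0% and 15.4%). The groups did not overlap for 32 genes higher in the knockout (all genes tested, 30.2%) and for 10 lower (all genes tested, 24.3%).

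The summed level of the family in the IL-33 set was 1216, 1548 and 1298 FPKM in the wild type against 1519, 1546 and 1517 FPKM in the knockout. Wild-type library 2 was level with the knockouts while the other wild-type libraries lay below them. The knockout libraries were close together: the family took 0.529% ± 0.00348 (SD, n = 3) of FPKM outside the mitochondrial genome there and 0.452% ± 0.0472 (SD, n = 3) in wild-type libraries. Wild-type library 1 held the lowest value of 43 of the 78 genes, and wild-type library 2 the highest of 26.

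The 19 genes that rose comprised 9 of the 51 large-subunit genes (Mrpl4, Mrpl21, Mrpl28, Mrpl30, Mrpl34, Mrpl37, Mrpl39, Mrpl42 and Mrpl50), 9 of the 26 small-subunit genes (Mrps11, Mrps16, Mrps21, Mrps22, Mrps24, Mrps25, Mrps27, Mrps34 and Mrps35) and Mrps36. Without Mrps36, 18 of 77 genes were higher (23.4%) and 6 lower (7.79%), against 22.2% and 16.8% of all genes tested. Mrps36 again had the largest rise. It gave 8.82, 13.9 and 9.06 FPKM in the wild type against 25.9, 22.4 and 23.7 FPKM in the knockout, with a wide gap between the groups (ratio of means 2.27, change 1.13 ± 0.17, limma adjusted p = 0.00167). Mrpl42, a large-subunit protein particular to mitochondria, gave 10.3, 15.0 and 10.4 FPKM in the wild type against 24.1, 22.6 and 23.6 FPKM in the knockout. Its groups did not overlap (ratio 1.97, change 0.94 ± 0.14, limma adjusted p = 0.00196).

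Mrpl34, a short basic protein of the large subunit, gave 34.5, 65.3 and 40.7 FPKM in the wild type against 75.4, 79.5 and 81.5 FPKM in the knockout. Wild-type library 2 came near the knockouts, and the change was 0.79 ± 0.21 (limma adjusted p = 0.021). Mrps11 rose from 4.54, 6.71 and 5.70 to 9.08, 10.5 and 9.30 FPKM (0.69 ± 0.14, limma adjusted p = 0.00704). Mrpl46, its partner, gave 13.0, 16.5 and 15.0 FPKM in the wild type against 17.3, 19.8 and 16.8 FPKM in the knockout. That pair of groups was separate by a narrow margin and did not pass (0.26 ± 0.12, limma adjusted p = 0.11).

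Mrpl28, a large-subunit protein with a bacterial counterpart, gave 23.4, 32.0 and 26.1 FPKM in the wild type against 42.8, 42.9 and 40.8 FPKM in the knockout (0.63 ± 0.12, limma adjusted p = 0.00534). Mrps21 gave 39.3, 60.8 and 37.3 FPKM in the wild type against 76.3, 64.4 and 67.0 FPKM in the knockout. Its groups were separate, but wild-type library 2 came close to the knockouts (0.62 ± 0.18, limma adjusted p = 0.0311). In fits that left out a single library, the calls of Mrpl34 and Mrps21 were lost in 5 each, while those of Mrps36, Mrpl42, Mrps11 and Mrpl28 were lost in none.

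The 6 genes that fell were Mrps18b, Mrpl33, Mrps10, Mrpl52, Mrps9 and Mrps30. Mrps18b is 1 of 3 mammalian genes of the bacterial S18 protein family, and its product is a small-subunit protein. It gave 38.1, 27.6 and 30.0 FPKM in the wild type against 13.9, 13.0 and 14.1 FPKM in the knockout. Each knockout library was far below each wild-type library, with means of 31.9 ± 5.49 and 13.7 ± 0.574 FPKM (SD, n = 3 each), a ratio of wild type to knockout of 2.33. The change was −1.15 ± 0.13 (limma SE, adjusted p = 0.000486). Its exons overlap an annotated gene on the opposite strand, Gm16279.

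The other S18 genes did not follow Mrps18b past the threshold. Mrps18a, whose product lies in the large subunit, gave 9.79, 10.7 and 9.17 FPKM in the wild type against 10.4, 11.0 and 10.4 FPKM in the knockout, with overlap (0.09 ± 0.10, limma adjusted p = 0.482). Mrps18c, whose product takes the place of the bacterial protein, gave 15.1, 16.5 and 12.1 FPKM in the wild type against 13.1, 11.9 and 12.5 FPKM in the knockout, also with overlap (−0.20 ± 0.12, limma adjusted p = 0.244).

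Mrpl33, a short large-subunit protein, gave 5.10, 4.97 and 5.12 FPKM in the wild type against 2.69, 3.21 and 3.07 FPKM in the knockout. Both groups were tight and well apart (ratio of wild type to knockout 1.70, change −0.61 ± 0.11, limma adjusted p = 0.00349). An annotated gene on the same strand, Gm43809, shares exon sequence with it, so the authors' counting could have divided the reads between them. The calls of Mrps18b and Mrpl33 were kept in each fit that left out a single library.

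The remaining 4 falls were smaller. Mrps10 and Mrps9, small-subunit proteins with bacterial counterparts, changed by −0.38 ± 0.12 (limma adjusted p = 0.0439) and −0.33 ± 0.11 (adjusted p = 0.0463). Mrpl52, a large-subunit protein particular to mitochondria, gave 22.9, 23.1 and 22.5 FPKM in the wild type against 15.8, 18.9 and 17.6 FPKM in the knockout (−0.37 ± 0.09, limma adjusted p = 0.0169). Mrps30, in the large subunit, gave 5.95, 5.79 and 5.38 FPKM in the wild type against 4.15, 4.34 and 4.51 FPKM in the knockout (−0.33 ± 0.10, limma adjusted p = 0.0336). All 4 had separate groups, and each call was lost in 2 to 5 of the fits that left out a single library.

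Among genes with special roles, Mrpl12 gave 61.0, 90.1 and 70.0 FPKM in the wild type against 90.3, 95.5 and 90.4 FPKM in the knockout. The groups were separate by a narrow margin, wild-type library 2 lying just under the lowest knockout library, and the test was not passed (0.33 ± 0.14, limma adjusted p = 0.0934). Mrpl58, a ribosome-bound peptidyl-tRNA hydrolase that rescues stalled ribosomes, changed by 0.25 ± 0.11 (limma adjusted p = 0.116), and Mrpl57 by −0.17 ± 0.14 (limma adjusted p = 0.376). Mrps12 gave 21.0, 27.0 and 26.6 FPKM in the wild type against 26.2, 27.6 and 26.4 FPKM in the knockout, with overlap (0.11 ± 0.11, limma adjusted p = 0.472). The PAD4 changes of Mrpl12, Mrpl58 and Mrpl57 were 0.69 ± 0.33, 0.54 ± 0.27 and 0.71 ± 0.27, and none passed (limma adjusted p = 0.169, 0.179 and 0.0753).

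**Figure D2:**
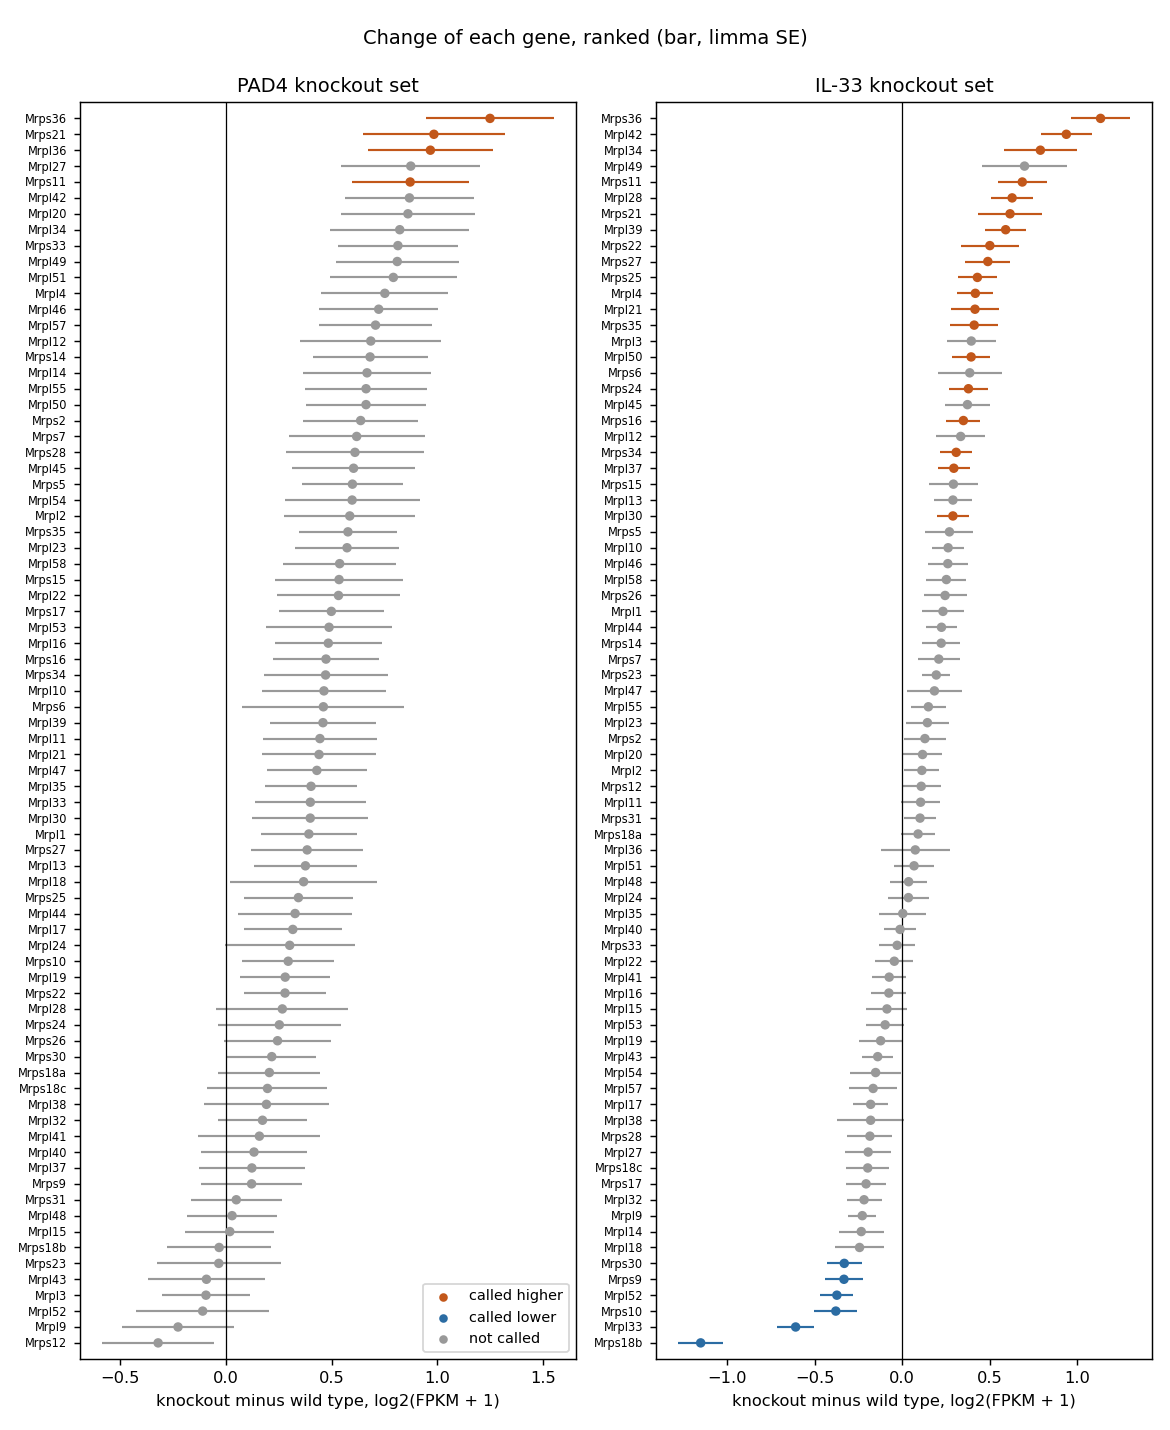
Change of each of the 78 genes, knockout less wild type as log2(FPKM + 1), ranked within each comparison (points; bars, limma SE; orange, called higher; blue, called lower; grey, not called). The bars are longer in the PAD4 set, where 71 genes lie above 0 and 4 are called, than in the IL-33 set, where 19 are called higher and 6 lower.

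The precision of the comparisons differed. The median limma SE of a mitoribosomal gene was 0.27 in the PAD4 comparison and 0.12 in the IL-33 comparison. A change near the family's PAD4 median of 0.45 therefore lay within 2 SE in the PAD4 set, while Mrps9, with a change of −0.33, was called in the IL-33 set. The numbers of genes called do not measure the size of the response.

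Set beside each other, 3 genes were higher in both comparisons (Mrps36, Mrps11 and Mrps21), against 5.03% of the 13010 genes tested in both tables, and none was called in opposite directions (1.47% of all genes). The change was above 0 in both for 48 of the 78 genes and below 0 in both for 4, against 4516 and 3607 of the 13010 genes. Across the 78 genes the 2 changes correlated with Pearson r = 0.45 and Spearman rho = 0.36, and across all genes tested in both tables with r = 0.40 and rho = 0.36. These coefficients are descriptions over genes, which share libraries and are not independent replicates.

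A test of the difference itself, the PAD4 change minus the IL-33 change over all 12 libraries, was passed by 2 of the 78 genes, against 12.4% of the 13010 genes tested. Mrps18b differed by 1.12 ± 0.24 (limma SE, adjusted p = 0.00794), being uncalled in the PAD4 set and lower in the IL-33 knockout. Mrpl33 differed by 1.01 ± 0.29 (limma SE, adjusted p = 0.0373). In the PAD4 set, Mrpl33 gave 2.37, 2.33 and 3.37 FPKM in the wild type against 3.51, 6.04 and 2.54 FPKM in the knockout, overlapping. The call of Mrps18b held in each alternative fit, while that of Mrpl33 did not, with adjusted p-values from 0.00948 to 0.0956 over fits that left out a single library. For Mrps36, Mrps11 and Mrps21 the difference did not pass (0.11 ± 0.37, 0.18 ± 0.33 and 0.37 ± 0.36, limma adjusted p = 0.875, 0.768 and 0.557), which does not show that they responded alike. Mrpl36, called in the PAD4 set and not in the IL-33 set, did not pass either (0.89 ± 0.34, limma adjusted p = 0.101).

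**Figure D3:**
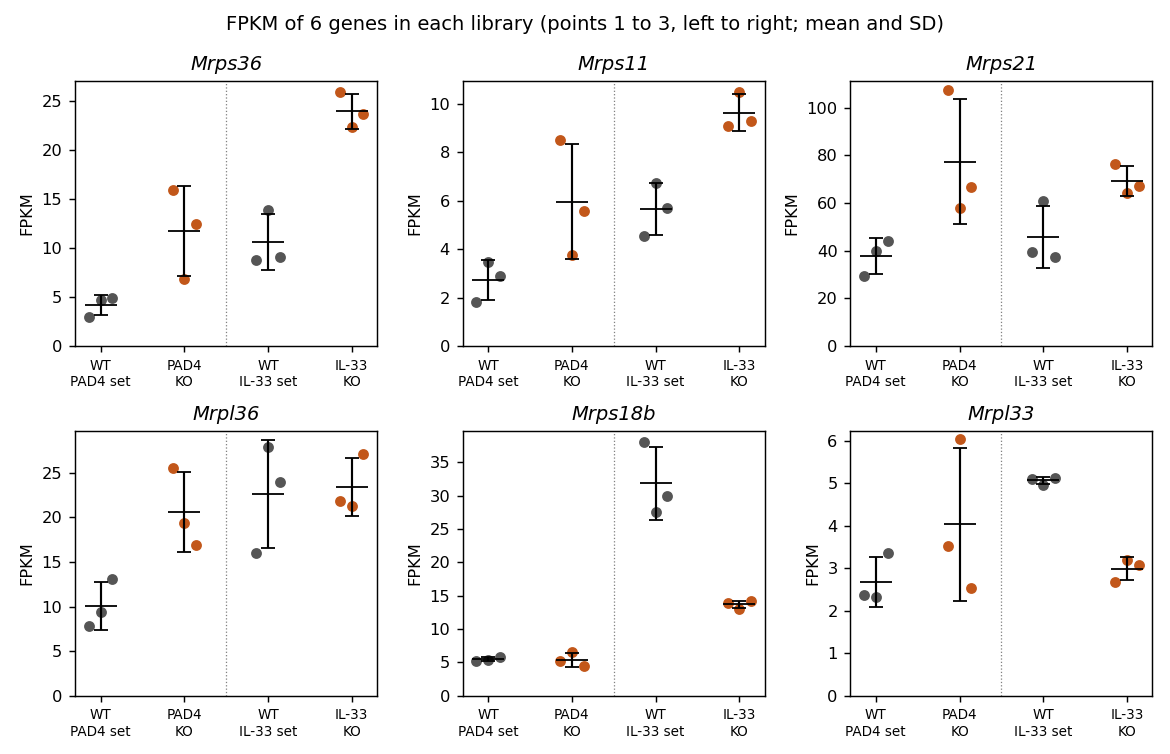
FPKM of Mrps36, Mrps11, Mrps21, Mrpl36, Mrps18b and Mrpl33 in each library (points in library order; long bar, mean; error bar, SD, n = 3). Mrps36, Mrps11 and Mrps21 lie higher in both knockouts, while Mrps18b and Mrpl33 lie lower in the IL-33 knockout. Levels are not comparable between the sets, whose tables were normalised separately.

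**Figure D4:**
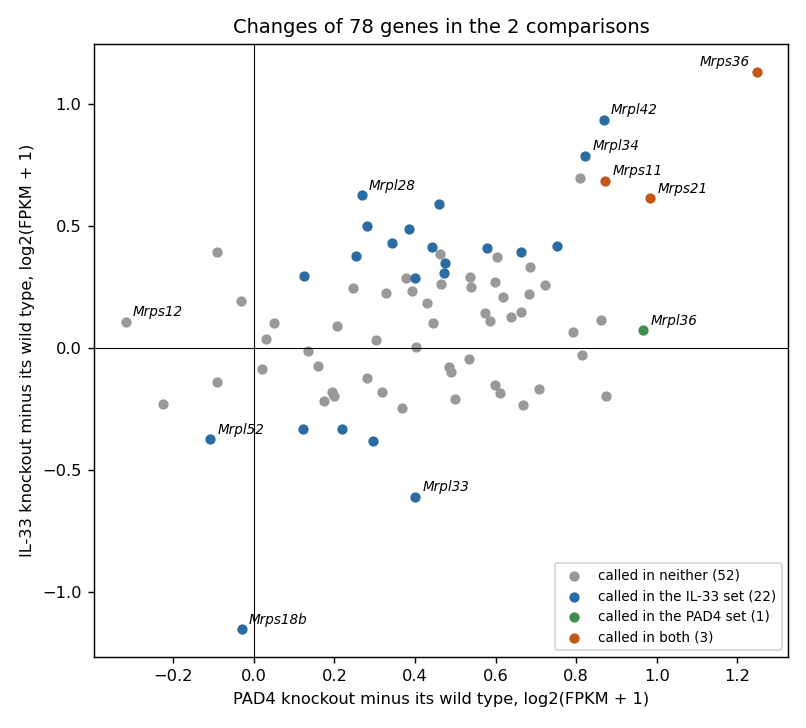
Change of each of the 78 genes in the PAD4 comparison (horizontal axis) and in the IL-33 comparison (vertical axis), both as log2(FPKM + 1), coloured by call. Of the genes, 52 were called in neither comparison, 22 in the IL-33 set, 1 in the PAD4 set and 3 in both, and Mrps18b lies apart at the bottom.

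The subunits were described separately. The median PAD4 change was 0.44 for the 51 large-subunit genes and 0.47 for the 26 small-subunit genes, and the IL-33 medians were 0.09 and 0.23. The genes with a bacterial counterpart had medians of 0.46 and 0.11 in the PAD4 and IL-33 sets, and those particular to mitochondria 0.36 and 0.19. Large-subunit names outweighed small-subunit names in summed FPKM by a similar factor in all groups. The Mrpl to Mrps ratio was 1.99 ± 0.0655 in wild type and 1.90 ± 0.246 in the PAD4 knockout (SD, n = 3 each). In the IL-33 set it was 1.99 ± 0.0568 and 1.90 ± 0.0435 (SD, n = 3 each). These sums run over 49 Mrpl and 29 Mrps genes by name, Mrps36, Mrps30 and Mrps18a among the latter, and are not levels per gene. No test was made between these subsets.

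Mitoribosomal genes are short: 58 of the 78 fell in the shortest of 4 equal groups of tested protein-coding genes by coding length. In that group the median change of all genes was 0.07 in the PAD4 set and 0.01 in the IL-33 set, and the 58 mitoribosomal genes within it had medians of 0.47 and 0.11. In the next group all genes had medians of 0.01 and 0.06, and the other 20 mitoribosomal genes 0.36 and 0.25. Within the family, change and coding length correlated with Spearman rho = −0.38 in the PAD4 set, where shorter genes tended to larger rises. In the IL-33 set rho was 0.10. The part that length plays in the changes was not tested. Exons of 33 of the 78 genes overlap those of another annotated gene. The 45 without overlap had median changes of 0.48 and 0.12, and the 33 with overlap 0.40 and 0.21.

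Motif content and calls can be set side by side for the IL-33 comparison. At least 1 of the 3 cores was present in 12 of the 16 promoters of genes called higher (75.0%), in 25 of the 47 of genes not called (53.2%) and in 5 of the 6 of genes called lower (83.3%). Genes called in opposite directions thus both carried these cores, as the promoters of Mrps21 and Mrps18b above show with their ETS cores.

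Genes that work around the mitoribosome were taken from lists. Counts in each list below stand beside the shares of all genes tested. These shares were 8.89% higher and 8.79% lower in the PAD4 set, and 22.2% higher and 16.8% lower in the IL-33 set. Of 5 mitoribosomal proteins with other names, 0 passed limma in the PAD4 set (median 0.28, 0 at an unadjusted p under 0.05) and 1 did in the IL-33 set, Ptcd3, a small-subunit protein (0.73 ± 0.13, limma adjusted p = 0.0039). The translation factors that load, move and release the ribosome were above 0 for 11 of 12 in the PAD4 set, where 1 passed, the recycling factor Gfm2 (0.84 ± 0.23, limma adjusted p = 0.0174). In the IL-33 set 6 of 12 were higher and 0 lower (median 0.52). They included the elongation factors Tufm (1.14 ± 0.14, limma adjusted p = 0.000745) and Gfm1 (0.84 ± 0.09, limma adjusted p = 0.000399), besides Gfm2 (0.94 ± 0.19, limma adjusted p = 0.0071) and Guf1 (0.67 ± 0.11, limma adjusted p = 0.00261).

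Factors that assemble the mitoribosome or modify its RNA numbered 23 tested in the PAD4 set, of which 1 was higher, the GTPase Mtg2 (0.66 ± 0.20, limma adjusted p = 0.0301). In the IL-33 set 7 of 24 were higher (29.2%) and 2 lower (8.33%), beside the 22.2% and 16.8% of all genes. The helicase Ddx28 (−0.61 ± 0.13, limma adjusted p = 0.00712) and Rcc1l (−0.48 ± 0.11, limma adjusted p = 0.0111), both needed for the large subunit, fell, while the rRNA methyltransferase Mettl15 (0.67 ± 0.13, limma adjusted p = 0.00678) and the RNA-binding Fastkd2 (0.62 ± 0.16, limma adjusted p = 0.0181) rose.

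The enzymes that charge mitochondrial tRNAs were higher for 10 of 20 in the IL-33 set with 0 lower (median 0.41), among them Gatb, Iars2 and Fars2 with changes of 0.52, 0.43 and 0.43. Of 19 tested in the PAD4 set 1 passed, Gatb (0.85 ± 0.26, limma adjusted p = 0.0314), a subunit of the glutaminyl-tRNA amidotransferase. Of the genes for mitochondrial transcription and RNA processing, 5 of 12 were higher in the IL-33 set: the mRNA-binding Lrpprc (0.61), the RNA-degrading Pnpt1 and Supv3l1 (0.80 and 0.49), the polymerase Polrmt (0.61) and the transcription factor Tfam (0.26). Slirp, the partner of Lrpprc, was the 1 of 12 that passed in the PAD4 set (0.82 ± 0.25, limma adjusted p = 0.0293).

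Of 9 regulators of nuclear mitochondrial genes, Ppargc1a, a coactivator of mitochondrial biogenesis, rose in both sets (0.77 ± 0.25, limma adjusted p = 0.0358 in the PAD4 set; 1.28 ± 0.15, adjusted p = 0.000625 in the IL-33 set). In the IL-33 set the nuclear receptor Esrra also rose (1.51 ± 0.23, limma adjusted p = 0.00205), while Myc (−2.54 ± 0.12, adjusted p = 2.21e-05) and the coactivator Pprc1 (−1.04 ± 0.16, adjusted p = 0.00185) fell. Both pairs hold activators of nuclear genes for mitochondrial proteins, and they moved in opposite directions. Proximal tubule markers were higher for 11 of 13 tested genes in the PAD4 set and for 10 of 14, with 1 lower, in the IL-33 set, and the part of this in the change of Ppargc1a, a gene of oxidative tissues, was not tested.

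Of the 13 messages that the mitoribosome translates, 1 passed in the PAD4 set, mt-Nd4l (1.19 ± 0.30, limma adjusted p = 0.00954), with a list median of −0.04. In the IL-33 set 0 passed by limma, with 3 at an unadjusted p under 0.05 (median 0.05). These are levels of messages, and the proteins made from them were not measured. Neither of the 2 mitochondrial ribosomal RNAs passed in either set (medians 0.10 and 0.27). The libraries were enriched for polyadenylated RNA, so levels of ribosomal RNA reflect only what that step left.

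Complex I, which the mitoribosome supplies with its mitochondrially encoded subunits, was compared through its nuclear genes. Of 37 in the PAD4 set, 15 were higher and 0 lower (40.5%, median 0.92), led by Ndufs8 (2.76 ± 0.35, limma adjusted p = 8.52e-05), and in the IL-33 set 12 of 37 were higher and 0 lower (median 0.20), with the smallest p for Ndufs1 (0.94 ± 0.09, limma adjusted p = 0.000278). The mitoribosomal median in the PAD4 set was thus about midway between that of complex I and 0. For the ribosomal proteins of the cytosol, 0 of 84 passed in the PAD4 set by limma (median 0.00, with 5 at an unadjusted p under 0.05), and in the IL-33 set 24 of 84 were lower and 0 higher (28.6%, median −0.17), among them Rpl10a (−0.50 ± 0.08, limma adjusted p = 0.00288).

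**Figure D5:**
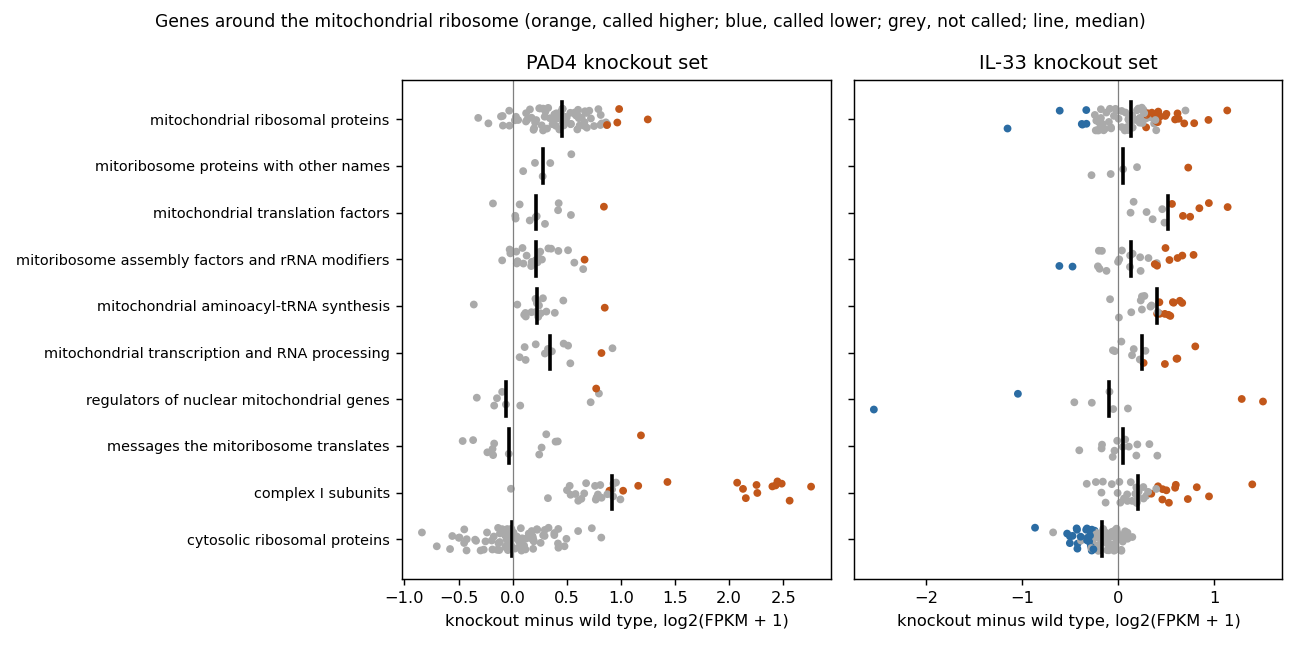
Change of each tested gene, knockout less wild type as log2(FPKM + 1), in the mitoribosomal family and 9 gene lists (points; orange, called higher; blue, called lower; grey, not called; line, list median). In the PAD4 set the mitoribosomal median of 0.45 lies below that of complex I at 0.92, and in the IL-33 set the cytosolic ribosomal proteins lie mostly below 0.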

How the data were processed

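The deposited files were 2 tables of FPKM per gene (fragments scaled to transcript length and library size), made by the authors, 1 for each set. Per the submitters' processing notes the tools were FastQC, cutadapt, HISAT2, StringTie, DESeq2 and edgeR. Not given in the sources used here: their versions and roles, the genome build and the annotation. Per the labels, the libraries were strand-specific and made from polyadenylated RNA. FPKM depends on the rest of each library, and the mitochondrial genome took 52.0 to 60.0% of the FPKM of a library in the PAD4 set.

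In the IL-33 table the wild-type columns are headed with the injury model and a number only. They were taken as the wild type of that set, since the other columns there name the Il33 knockout and the table is titled as wild type and knockout.

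Gene identifiers were matched to symbols with GENCODE (30212 of 32199 genes in the PAD4 table, 29690 of 31719 in the IL-33 table). Within each table, log2(FPKM + 1) of genes with a mean of at least 0.5 FPKM was fitted with limma 3.58.1 in R 4.3.3 (knockout against wild type, trended moderation, two-sided). P-values were adjusted by the Benjamini-Hochberg method over all genes tested, 13986 and 14513, and the threshold was 0.05. The difference between the changes was a contrast over all 12 libraries and 13010 genes. A change on this scale understates the fold change of genes with low FPKM. The test was checked on simulated data. No library pair held identical values.

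The genes, lists, motifs and tests were chosen with earlier results of these data known. Named members were the 6 largest rises and falls past the threshold in each comparison, those past the test of the difference, the 3 highest and 3 lowest by mean FPKM in each table, and genes with special roles. Up to 4 genes were named per list by smallest p, or all where a count was spelled out. Mtrfr, Mtres1 and Prorp were not matched, and Ybey and Mars2 were below the filter in the PAD4 set. The alternative settings used a pseudocount of 0.1 or 0.5, a filter at a mean of 2 FPKM or none, median-of-ratios, TPM, nuclear-gene and quantile scaling, no trend, array weights, a replicate block and leaving out each library.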

Additional observations from a re-analysis of the deposited data

Results flagged for a closer look

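For 2 of the 78 genes the test of the difference between the knockouts was passed (limma over 12 libraries, adjusted over 13010 genes). The PAD4 change of Mrps18b minus its IL-33 change was 1.12 on the log2(FPKM + 1) scale: the level fell in the IL-33 knockout and differed by −0.03 ± 0.25 in the PAD4 knockout. For Mrpl33 the same difference was 1.01, with a fall in the IL-33 knockout and an uncalled change of 0.40 ± 0.26 in the PAD4 knockout. In the PAD4 knockout the value of Mrpl33 in library 2, 6.04 FPKM, stood above the other libraries, of which knockout library 1 at 3.51 FPKM was the next.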

How the results depend on the processing

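The direction of the family's median held in each alternative fit, from 0.26 to 0.57 (PAD4) and from 0.09 to 0.21 (IL-33) when single libraries were left out, while the numbers of genes called did not. In the PAD4 comparison, 4 genes were higher and 0 lower. With no filter 0 were higher, where limma called 0 of all 32199 genes, with 6053 at an unadjusted p under 0.05. The count was 23 with median-of-ratios scaling (all genes tested, 12.7%) and 23 with quantile normalization (13.7%). It was 2 with TPM scaling (8.31%) and 12 with array weights (12.1%). Without single libraries it was 0 to 17 (all genes tested, 2.49 to 12.7%). None was called lower in any of these. In the IL-33 comparison, 19 were higher and 6 lower. With TPM scaling 3 were lower (all genes tested, 13.9%), and with scaling to nuclear genes 3 (14.4%). Without single libraries 5 to 25 were higher and 2 to 8 lower (all genes tested, 14.3 to 27.0% and 10.8 to 18.3%). In the test of the difference, passed by 2 genes, 1 passed with no filter, 1 with TPM scaling and 1 with scaling to nuclear genes. With median-of-ratios scaling 17 passed, with quantile normalization 19, with array weights 15 and without single libraries 1 to 5. The share of all genes passing was taken for the main fit only (12.4%). These counts therefore cannot be read as a trait of the family. The cause of the shifts in these numbers was not tested.

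With the replicate number as a block, 1 gene was called higher in the PAD4 comparison (all genes tested, 6.8%). In the IL-33 comparison 15 were higher and 3 lower with this block (all genes tested, 21.1% and 15.6%). Deviations of same-numbered libraries correlated at −0.016, −0.11 and −0.15 in the PAD4 set and at −0.014, 0.13 and −0.0017 in the IL-33 set. These are descriptions without a test, and they cannot exclude that the numbers pair the libraries.

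Among the genes named by rule, uncalled changes of 5 turned sign, and the number of all 78 above 0 ranged from 67 to 74 (PAD4) and from 46 to 55 (IL-33) over single libraries left out. In the PAD4 set Mrpl24 changed by −0.0194 with quantile normalization. When single libraries were left out, the PAD4 changes ranged from −0.241 to 0.0513 for Mrpl3 (above 0 without wild-type library 3), from −0.157 to 0.0726 for Mrps18b (above 0 without wild-type library 3 or knockout library 3) and from −0.037 to 0.42 for Mrps18c (below 0 without wild-type library 1). The IL-33 change of Mrps12 ranged from −0.0021 (without wild-type library 1) to 0.17. FPKM keeps no read totals, so what depth limits is unknown.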

Other observations

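Genes beside the mitoribosomal genes that changed most were looked up after the values were seen. Atat1 and Ppp1r10, which flank Mrps18b, changed by 0.30 ± 0.21 and 0.10 ± 0.21 in the IL-33 set, and neither passed the limma test (adjusted p = 0.285 and 0.724). Cdk7 and Slc30a5, which flank Mrps36, changed by 0.08 ± 0.15 and −0.02 ± 0.10 there (limma adjusted p = 0.692 and 0.915) and by 0.09 ± 0.21 and −0.03 ± 0.25 in the PAD4 set (adjusted p = 0.842 and 0.954). Socs2, a feedback inhibitor of cytokine signalling that flanks Mrpl42, fell by 1.28 in the IL-33 set (SE 0.15, limma adjusted p = 0.000604), in the opposite direction to Mrpl42. Ube2n, on the other side of Mrpl42, changed by −0.01 ± 0.10 (limma adjusted p = 0.948). Rbks, a ribokinase gene beside Mrpl33, rose in the PAD4 set (0.69 ± 0.23, limma adjusted p = 0.0436) and did not pass in the IL-33 set (0.34 ± 0.13, adjusted p = 0.0784).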
